A study of Mus musculus with 4 samples.

Results

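The clustered histone genes are the protein-coding genes of GENCODE mouse release M21 whose symbols begin with Hist1h, Hist2h, Hist3h or Hist4h, and 67 of 21951 protein-coding genes met that rule. Hist1 on chromosome 13 held 54 of them, Hist2 on chromosome 3 held 10, Hist3 on chromosome 11 held 2 and Hist4 on chromosome 6 held 1. By product, 6 encode the linker histone H1, 18 encode H2a, 18 encode H2b, 12 encode H3 and 13 encode H4. DNase-seq, which maps DNA that the enzyme DNase I can cut in nuclei, was performed on naive resting CD8-positive alpha-beta T cells of virgin female B6CASTF1/J mice, an F1 hybrid strain, aged 2 months. The 4 libraries are labelled biological replicates 1 to 4 of 1 group, with no treatment named, and share 1 donor identifier, and nothing in the labels assigns them to separate mice, so spreads and p-values over libraries may be technical.

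Clustered histone genes supply the histones that package newly copied DNA, and most of their mRNA is made in S phase of the cell cycle. Their mRNAs end in a stem-loop bound by SLBP in place of a poly(A) tail, and their transcription is driven by NPAT, a substrate of cyclin E and CDK2 that gathers on these genes in the nuclear histone locus body. Naive T cells are quiescent until antigen drives them to divide, and replacement histone genes outside the clusters serve cells that do not copy their DNA. An accessible promoter is a readout of chromatin, not of RNA, and no RNA was measured here.

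Promoters were taken as the DNA up to 1 kb on either side of each GENCODE start, and a promoter peak was a consensus site where at least 3 of 4 libraries called it. Heights are given as relative heights, the deposited height of a peak divided by the library's own median over those sites that every library called. A value of 1 is therefore the median shared site and 0 means that no peak was called. Replicate 4 had the fewest peaks, 20647 against 51121 to 70552 in the other libraries. Libraries differed at marker genes. Cd8a, the alpha chain of CD8, stood at 0.498 in replicate 1 and 0.366 in replicate 2, with no promoter peak in replicates 3 and 4. Its partner Cd8b1 had a peak in every library (1.12, 1.43, 1.03 and 0.596), as did Cd3d, Lck and Lat, and Cd3e and Cd3g had one in replicates 1 to 3. The summed relative height of 5 B cell markers was 0.807, 0.694, 1.99 and 2.35 in replicates 1 to 4, with 3, 2, 4 and 2 of the 5 called, and that of 7 T cell markers was 7.06, 6.52, 5.58 and 3.45, with 7, 7, 6 and 4 called. Results are therefore also given for replicates 1 and 2 alone. The 6 markers of dividing cells had a promoter peak in every library, as did 45.9% of all protein-coding genes. In cells measured in bulk, fewer cells with an open site and less opening per cell cannot be told apart.

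The promoters that carry the main contrasts are printed here on GRCm38 (mm10) from the RefSeq assembly, 5′ to 3′. Each single-gene sequence runs on the gene's strand from 250 bases before to 50 after the GENCODE start. Capitals mark matches on either strand to the NF-Y word CCAAT, the TATA box TATAAA, the octamer ATTTGCAT, the CREB word TGACGTCA, the H1 box AAACACA and the H4 word GGTCCG. The first 4 are H4 genes, shown because H4 promoters were the highest of the families. They lie at chr13:23761181-23761480 on the minus strand, chr13:23698405-23698704 on the minus strand, chr13:22041313-22041612 on the minus strand and chr6:136804366-136804665 on the minus strand.
Hist1h4a: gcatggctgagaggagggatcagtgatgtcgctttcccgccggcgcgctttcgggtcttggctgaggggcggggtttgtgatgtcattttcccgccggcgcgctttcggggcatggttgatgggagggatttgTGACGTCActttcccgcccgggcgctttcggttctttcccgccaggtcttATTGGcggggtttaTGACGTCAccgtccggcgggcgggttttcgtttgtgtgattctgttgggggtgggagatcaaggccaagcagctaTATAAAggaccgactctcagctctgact
Hist1h4c: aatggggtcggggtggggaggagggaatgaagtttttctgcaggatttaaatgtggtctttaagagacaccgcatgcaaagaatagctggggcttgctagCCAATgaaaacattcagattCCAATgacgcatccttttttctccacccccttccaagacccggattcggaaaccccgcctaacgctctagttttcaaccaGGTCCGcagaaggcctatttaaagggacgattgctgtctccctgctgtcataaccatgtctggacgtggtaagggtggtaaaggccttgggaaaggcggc
Hist1h4i: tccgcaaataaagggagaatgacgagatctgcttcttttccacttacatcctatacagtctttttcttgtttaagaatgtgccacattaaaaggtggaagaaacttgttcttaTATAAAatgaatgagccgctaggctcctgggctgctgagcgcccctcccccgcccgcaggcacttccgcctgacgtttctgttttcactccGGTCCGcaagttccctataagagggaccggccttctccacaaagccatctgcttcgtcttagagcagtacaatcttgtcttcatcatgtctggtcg
Hist4h4: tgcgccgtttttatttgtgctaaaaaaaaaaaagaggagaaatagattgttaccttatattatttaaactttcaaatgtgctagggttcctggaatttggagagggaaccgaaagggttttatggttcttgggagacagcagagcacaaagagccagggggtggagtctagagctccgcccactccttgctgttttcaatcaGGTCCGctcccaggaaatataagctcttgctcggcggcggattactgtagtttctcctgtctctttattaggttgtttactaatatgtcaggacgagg

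A pair of H1 promoters follows, shown because the first was open in every library and the second, of the testis linker histone, in none. Hist1h1c lies at chr13:23738558-23738857 and Hist1h1t at chr13:23695564-23695863, both on the plus strand. Both carry AAACACA, the H1 box that marks H1 promoters, and CCAAT, the binding word of NF-Y.
Hist1h1c: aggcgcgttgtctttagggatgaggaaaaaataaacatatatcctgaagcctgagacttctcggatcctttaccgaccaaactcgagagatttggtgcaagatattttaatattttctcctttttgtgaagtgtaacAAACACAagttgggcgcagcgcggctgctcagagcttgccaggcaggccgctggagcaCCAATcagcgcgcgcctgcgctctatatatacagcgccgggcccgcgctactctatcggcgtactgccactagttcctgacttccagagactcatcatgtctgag
Hist1h1t: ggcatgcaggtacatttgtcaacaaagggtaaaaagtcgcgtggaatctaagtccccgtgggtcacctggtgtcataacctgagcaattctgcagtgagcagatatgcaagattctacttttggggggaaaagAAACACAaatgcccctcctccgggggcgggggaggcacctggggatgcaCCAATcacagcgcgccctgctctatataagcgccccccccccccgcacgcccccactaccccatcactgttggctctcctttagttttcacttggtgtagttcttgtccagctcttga

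The last set is the DNA between the starts of divergent H2a and H2b genes, on the plus strand. Hist1h2an and Hist1h2bp share chr13:21787219-21787460, the pair with the highest mean over 4 libraries when an uncalled peak counts as 0. Hist2h2ac and Hist2h2be share chr3:96220881-96221118, shown for its ATTTGCAT, the octamer bound by OCT1, the product of Pou2f1. Hist1h2ba and Hist1h2aa, the testis pair, are represented by the middle 300 bases between their starts, chr13:23934159-23934458, and had no peak.
Hist1h2an/Hist1h2bp: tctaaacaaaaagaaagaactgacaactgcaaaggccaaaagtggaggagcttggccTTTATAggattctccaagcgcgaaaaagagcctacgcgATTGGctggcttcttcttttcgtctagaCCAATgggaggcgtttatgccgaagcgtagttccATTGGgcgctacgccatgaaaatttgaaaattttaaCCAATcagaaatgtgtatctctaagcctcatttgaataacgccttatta
Hist2h2ac/Hist2h2be: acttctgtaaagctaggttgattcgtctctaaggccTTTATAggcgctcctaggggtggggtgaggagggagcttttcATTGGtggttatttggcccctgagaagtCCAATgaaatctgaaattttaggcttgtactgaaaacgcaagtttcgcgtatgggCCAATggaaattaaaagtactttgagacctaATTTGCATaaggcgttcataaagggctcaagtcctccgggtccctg
Hist1h2ba/Hist1h2aa: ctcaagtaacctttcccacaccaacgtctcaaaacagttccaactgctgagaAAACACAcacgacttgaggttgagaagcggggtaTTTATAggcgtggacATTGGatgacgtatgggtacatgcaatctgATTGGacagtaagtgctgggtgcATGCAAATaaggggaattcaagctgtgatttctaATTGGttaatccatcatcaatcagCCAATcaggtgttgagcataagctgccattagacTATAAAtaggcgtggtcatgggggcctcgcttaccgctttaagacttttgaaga

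Most clustered histone promoters were accessible in these resting cells, at modest height. Of the 67 genes, 55 (82.1%) had a consensus promoter site, against 12087 of all 21951 protein-coding genes, a background of 55.1%. Some sites count for neighbouring members. With each site counted only for its nearest start, 46 of 67 had one, against 50.9% of all genes. With an equal number of highest peaks from each library, 41 of 67 had one, against 44.3%. In replicates 1 and 2 alone, 56 of 67 had a site called in both, against 56.5% of all genes. A peak in every library was rarer, with 24 of 67 (35.8%) against a background of 45.9%. The median relative height of the 67 genes was 0.80, 0.604 and 0.924 in replicates 1, 2 and 3 and 0 in replicate 4. Among genes with a consensus site, the 55 histone genes had medians of 0.878, 0.697, 1.06 and 0 in replicates 1 to 4, and the 12032 other genes had 1.27, 1.25, 1.37 and 1.35. By these medians the histone genes with a site were lower than the other genes with a site in each library. Genes with many starts have longer windows, over which the highest peak is taken. Among genes with a site and a single window, 53 histone genes had medians of 0.878, 0.697, 1.06 and 0 in replicates 1 to 4. The 1170 other genes of that kind had 0.933, 0.884, 1.01 and 1.00. There the histone genes were lower in replicates 1, 2 and 4 and higher in replicate 3. The 58 histone genes with a peak in any library shared 44 distinct highest sites, so members are not independent measurements.

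The H4 family, which encodes the histone that pairs with H3, stood highest. All 13 H4 genes had a consensus site, and their median relative height was 1.21, 0.979, 1.69 and 1.23 in replicates 1 to 4 (mean 1.28 ± 0.297, SD, n = 4 libraries). The other families had medians of 0.680 to 0.851 in replicate 1, 0.388 to 0.607 in replicate 2, 0.694 to 0.900 in replicate 3 and 0 in replicate 4. A consensus site was found at 4 of 6 H1 genes, 13 of 18 H2a genes, 15 of 18 H2b genes and 10 of 12 H3 genes. By these medians H4 was above each other family in all 4 libraries, replicates 1 and 2 included, and the smallest two-sided p that an exact sign-flip permutation over 4 libraries can give is 0.13. In replicate 4 the H4 median rests on 7 of 13 genes with a peak. Within Hist1, 5 of 11 H4 genes had a peak there and the H4 median was 0, as in the other families. Of promoters with a peak in replicates 1 to 3, 7 of 13 also had one in replicate 4 in H4 and in H2a alike.

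**Figure D1:**
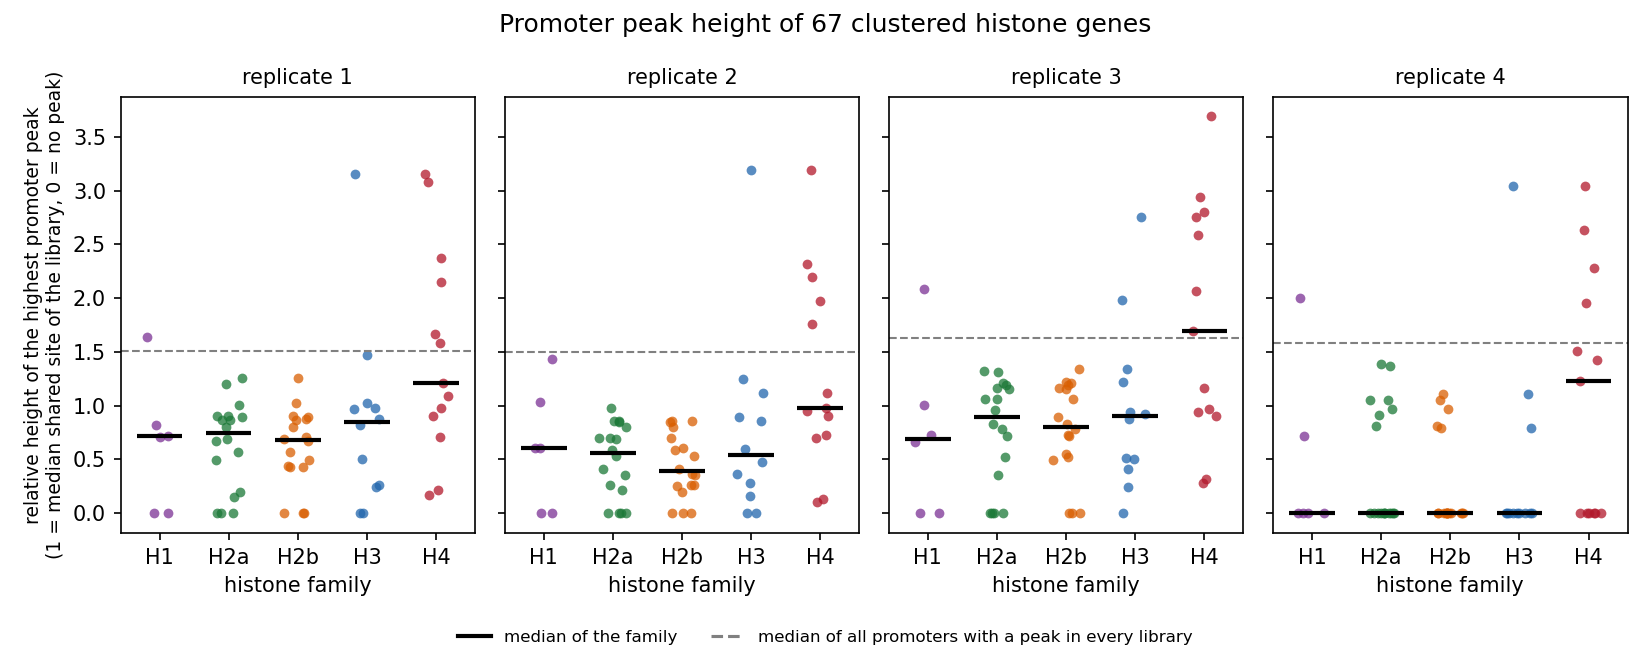
Relative height of the highest promoter peak (vertical axis, ratio to the median shared site) for each of the 67 clustered histone genes (points), by family and by library, with the family median (bar) and the median of all promoters that had a peak in every library (dashed line). The H4 median lies above that of each other family in every library, and most points of H1, H2a, H2b and H3 are at 0 in replicate 4.

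Hist1h4a, near the end of the largest gene group of Hist1, reached 3.15, 3.19, 2.75 and 3.04 times the median shared site in replicates 1 to 4, with a mean of 3.03 ± 0.198 (SD, n = 4). The median called promoter, taken over the 10081 genes with a peak in every library, was 1.51, 1.5, 1.63 and 1.58. Hist1h4a stood above it in every library. Its 480-base site, chr13:23761121-23761600, covers the first sequence printed above, which holds 2 copies of TGACGTCA, the binding word of CREB and ATF1. Hist1h3a carries the same 4 values only because that site reaches into its promoter window, 1025 bases from its start. By sites nearest to its own start, Hist1h3a had 0.376, 0.240, 0.646 and 0.702.

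Hist1h4c had 3.08, 2.32, 3.69 and 2.63 in replicates 1 to 4 (mean 2.93 ± 0.596, SD, n = 4), at a 220-base site whose centre lies 37 bases from its start. Hist2h4, the H4 gene of the Hist2 cluster, had 2.37, 2.20, 2.94 and 2.28. Both were above the median called promoter in every library. Hist4h4, the only gene of Hist4, had 1.58, 1.76, 1.69 and 1.42, on both sides of the median called promoter. It was above the lower medians of other genes with a consensus site (1.27, 1.25, 1.37 and 1.35) in every library. Hist1h4i had 1.21, 1.12, 2.59 and 1.95 and was also on both sides of the median called promoter. It was lower than that median in replicates 1 and 2 and above it in replicates 3 and 4. Hist1h4h had 2.15, 1.97 and 2.80 in replicates 1 to 3 and no peak in replicate 4. The lowest H4 genes were Hist1h4m (0.211, 0.105, 0.316 and 0) and Hist1h4n (0.169, 0.131, 0.278 and 0). Only 5.58% of the 32-base words at the start of either occur once in the genome.

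Hist1h1c led the H1 family with 1.64, 1.43, 2.08 and 2.00 in replicates 1 to 4 (mean 1.79 ± 0.306, SD, n = 4). Hist1h1a had 0.820, 1.03, 1.01 and 0.719, below the median called promoter in every library. Hist1h1b had 0.720, 0.610, 0.663 and 0, from a site centred 1034 bases from its start, beyond the 3′ end of the gene, and its sites within 0.5 kb gave 0.149, 0.110, 0.282 and 0. Hist1h1e shared a 1960-base site with Hist1h2be, at 0.709, 0.604, 0.725 and 0. Hist1h1d had no peak at its GENCODE start. RefSeq starts that gene at base 23555032 of chromosome 13 and GENCODE at base 23553262, and at the RefSeq start the heights were 0.424, 0.312, 0.454 and 0. It was the single member whose RefSeq start lay over 100 bases from every GENCODE start, with 62 of 67 members matched. With RefSeq starts, 56 of 67 members had a consensus site, an alternative chosen after the data were seen.

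H3, the partner of H4 in the nucleosome core, had 10 of 12 genes with a consensus site. Besides Hist1h3a, the highest were Hist1h3e, with 1.47, 1.25 and 1.98 in replicates 1 to 3 and no peak in replicate 4, and Hist1h3c, with 0.971, 1.12, 0.924 and 0.789. In replicate 4 the Hist1h3c value came from a site nearer to another start, since by its own nearest sites it had 0 there. In Hist2, Hist2h3b shared the site of Hist2h2bb (0.878, 0.853, 1.34 and 0), 1007 bases from its own start, and had 0.287, 0.156, 0.495 and 0 within 0.5 kb. Hist2h3c2 had 0.242, 0.162, 0.412 and 0, and Hist2h3c1 had no peak. Each of the last pair has 11.9% of its words present once in the genome.

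H2a and H2b genes, whose products form a dimer, were mostly arranged as divergent pairs. Of 13 pairs with starts within 1 kb and opposite strands, 12 joined an H2a to an H2b gene, and 26 of 67 members belonged to a pair. In 10 of 13 pairs both genes had the same highest site. The gap between the starts of H2a and H2b pairs ran from 176 bases (Hist1h2ae and Hist1h2bg) to 306 bases (Hist1h2ba and Hist1h2aa). Hist1h2an and Hist1h2bp had 0.891, 0.80, 1.15 and 0.965 in replicates 1 to 4. Hist2h2ac and Hist2h2be had 0.862, 0.697, 1.06 and 1.05 at a 1080-base site that also fell within 1 kb of Hist2h2ab. Hist1h2ac and Hist1h2bc had 0.904, 0.583, 1.21 and 0.807. These 3 pairs were below the median called promoter in every library. Hist1h2ag and Hist1h2bj had 1.26, 0.846, 1.19 and 0. They were above Hist1h2an and Hist1h2bp in replicates 1, 2 and 3 and lacked a peak in replicate 4.

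Outside the pairs, Hist2h2aa2 had 1.01, 0.981, 1.32 and 1.37 and Hist2h2aa1 had 0.900, 0.688, 1.31 and 1.39, with 11.9% and 26.8% of words present once in the genome. In Hist3, Hist3h2a had 1.2, 0.859, 0.962 and 0.912, and Hist3h2ba had 0.429, 0.261, 0.550 and 0. The 940-base site of Hist3h2a is also in reach of Trim17, which took the same 4 values, so that site is not that of the histone gene alone. Hist1h2bh had 1.02, 0.368, 1.22 and 1.11 by way of a site 1109 bases away, within Hist1h3f, and 0.567, 0.368, 0.677 and 0 by its own. Over the named members with a peak in every library, 20 in all, 4 were above the median called promoter in each library and 13 below it, and 3 were mixed. This tally depends on that reference, the promoters with a peak in every library. Against the lower medians of other genes with a consensus site, Hist4h4 and Hist1h1c would be above in each library. Hist2h2aa1 and Hist2h2aa2 would be mixed. The 4 above rest on 3 sites, since Hist1h3a only carries the site of Hist1h4a, and by its own nearest site it was below the median in every library. The 13 below also repeat sites. Hist2h2ab, Hist2h2ac and Hist2h2be share 1 site, as do Hist1h2an with Hist1h2bp and Hist1h2ac with Hist1h2bc. By their own nearest sites, Hist1h2bh and Hist1h3c had 0 in replicate 4. Over the 20 members, the Benjamini-Hochberg adjusted exact sign-flip permutation p ran from 0.15 to 0.75, and this test cannot reach 0.05 with 4 libraries.

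Between clusters, a consensus site was found at 43 of 54 genes in Hist1, 9 of 10 in Hist2, 2 of 2 in Hist3 and 1 of 1 in Hist4. The median relative height was 0.710, 0.559, 0.851 and 0 in replicates 1 to 4 in Hist1, and 0.870, 0.697, 1.18 and 1.05 in Hist2. The Hist2 median was thus above that of Hist1 in each library, and so were its H2a, H2b and H4 medians. Those Hist2 medians are of 4 H2a genes, 2 H2b genes and 1 H4 gene. The H3 genes went the other way in replicates 1 to 3. Their medians in replicates 1 to 4 were 0.242, 0.162, 0.412 and 0 over 3 genes in Hist2. Over 9 genes in Hist1 they were 0.971, 0.600, 0.924 and 0. In Hist2, Hist2h3c1 and Hist2h3c2 each have 11.9% of their words present once in the genome. Hist2 holds no H1 gene, and Hist2h2ab, Hist2h2ac and Hist2h2be share 1 site, so the cluster medians also reflect family make-up and shared sites. A peak in every library was found at 6 of 10 Hist2 genes and at 16 of 54 Hist1 genes. The 2 Hist3 genes had medians of 0.812, 0.560, 0.756 and 0.456.

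Along Hist1 the accessible promoters were spread over 3 of the 4 groups of genes that remain when the cluster is divided at gaps over 100 kb. Group A, the first on the chromosome, had consensus sites at 14 of 18 genes, group B at 5 of 5, group C at 24 of 29 and group D, the testis pair, at 0 of 2. The median of the members' mean relative heights was 0.344 in group A, 0.825 in group B and 0.704 in group C. The 3 highest members of Hist1, Hist1h4a, Hist1h3a and Hist1h4c, lay in group C. Of 33 consensus sites in group C, 27 were within 1 kb of a histone start and 1 at the start of Hfe, an iron-regulatory gene with 0.389, 0.343, 0.443 and 0. The gaps between the groups hold 48 other coding genes, of which 36 are vomeronasal receptor genes (Vmn1r) with 0 consensus sites, and 6 of the other 12 had a site.

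**Figure D2:**
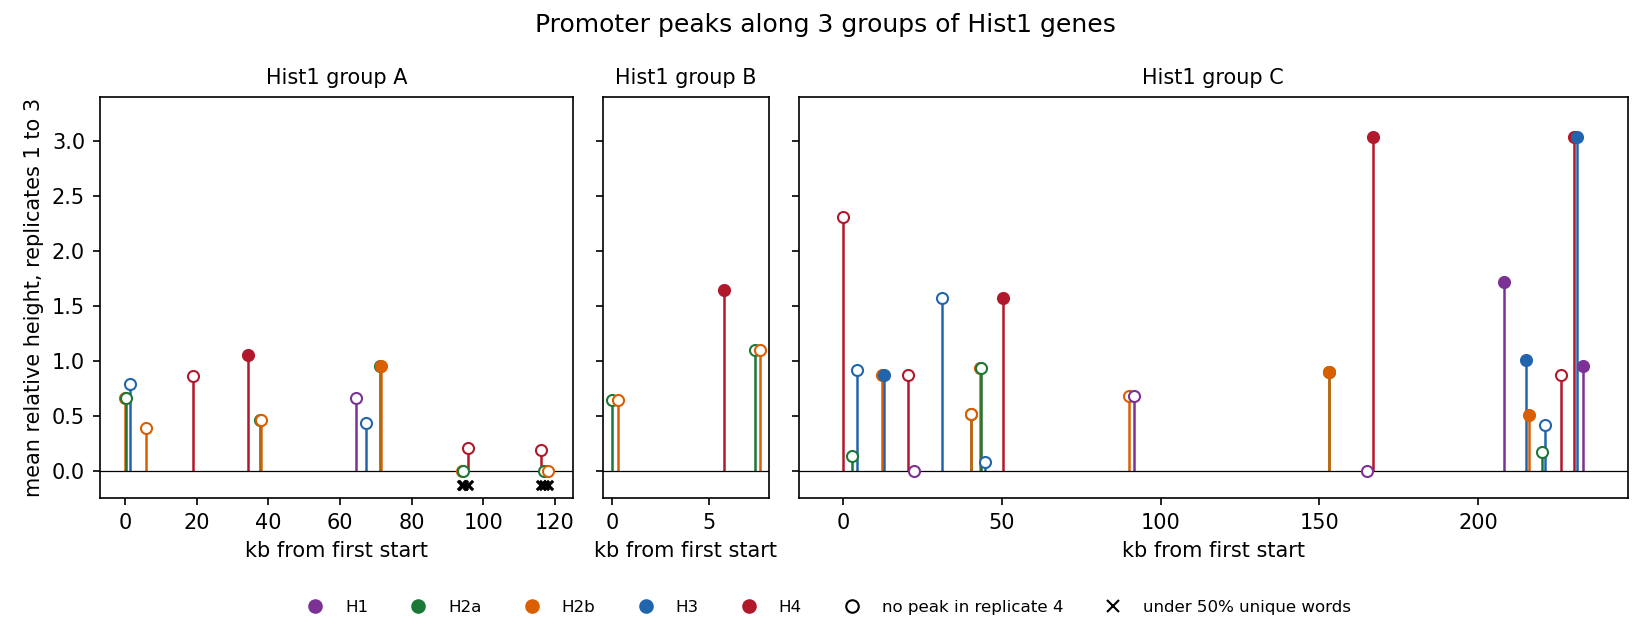
Mean relative height over replicates 1 to 3 (vertical axis) of the promoters of Hist1 genes against their distance in kb from the first start of groups A, B and C (horizontal axis), coloured by family, with open circles for genes with no peak in replicate 4 and crosses for genes with under 50% of their words unique in the genome. The tallest promoters, at about 3, are Hist1h4c and the site shared by Hist1h4a and Hist1h3a in group C, and the crosses of group A mark the 2 copied blocks at its end.

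The 12 members without a consensus site fell into 4 kinds. The testis histones Hist1h1t, Hist1h2aa and Hist1h2ba, which replace somatic histones in developing sperm, had 0 peaks, 0 footprints and 0 cut-rate intervals in each of the 4 libraries, although all of their words are unique. A lack of peaks is common, since 8614 of all 21951 protein-coding genes had no promoter peak in any library. Hist1h1t starts at base 23695814 of chromosome 13, and the next member along is Hist1h4c, one of the highest, at base 23698454. Hist1h2bq, Hist1h2ao, Hist1h2ap and Hist1h2br had no peak, and none of their words is unique, with a median of 2 copies. How reads with several matches were treated is not given in the sources used here, so at these 4 and at Hist2h3c1 a closed promoter and a lack of uniquely placed reads cannot be told apart. Hist1h2af was called in replicates 1 and 2 (0.200 and 0.215), Hist1h3d in replicate 3 (0.241) and Hist1h2ab in replicates 1 and 3 (0.147 and 0.357). Hist1h1d makes up the rest. Of the members, 10 of 67 had under 50% unique words, against 7.31% of all genes, and without them 50 of 57 had a consensus site.

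Fewer histone promoters than other promoters of like height had a peak in replicate 4. Of promoters with a peak in each of replicates 1 to 3, 24 of 55 histone genes (43.6%) also had one in replicate 4, against 10057 of 12054 other genes (83.4%). The gap was present in each range of height. At mean relative heights of 0.5 to 1 in replicates 1 to 3 the shares were 42.9% of 28 histone genes and 84.7% of other genes, and at 1 to 1.5 they were 4 of 8 histone genes and 98.1% of other genes. At 1.5 or more, 8 of 10 histone genes had a peak in replicate 4, against 5206 of 5212 other genes. Hist1h4h and Hist1h3e were the exceptions among the histone genes.

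None of the 31 histone genes that lacked a peak in replicate 4 had a footprint or a cut-rate interval there, and of the 1997 other genes 0 had a footprint and 143 (7.16%) a cut-rate interval. Counted by distinct sites, 17 of 41 histone sites were called in replicate 4. Promoters of histone genes had a median GC content of 45.3%, against 59.7% at other genes with a consensus site. Among other genes of 40 to 50% GC, 73.6% of 1653 had a peak in replicate 4, and 78.1% and 96.3% at heights of 0.5 to 1 and 1 to 1.5. With the 20647 highest peaks of each library the shares were 53.8% of 39 histone genes and 96.1% of other genes. Replicate 4 also differed in its marker genes, as given above, and the part of its cell content in this result was not tested. The comparison was chosen after the data were seen.

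**Figure D3:**
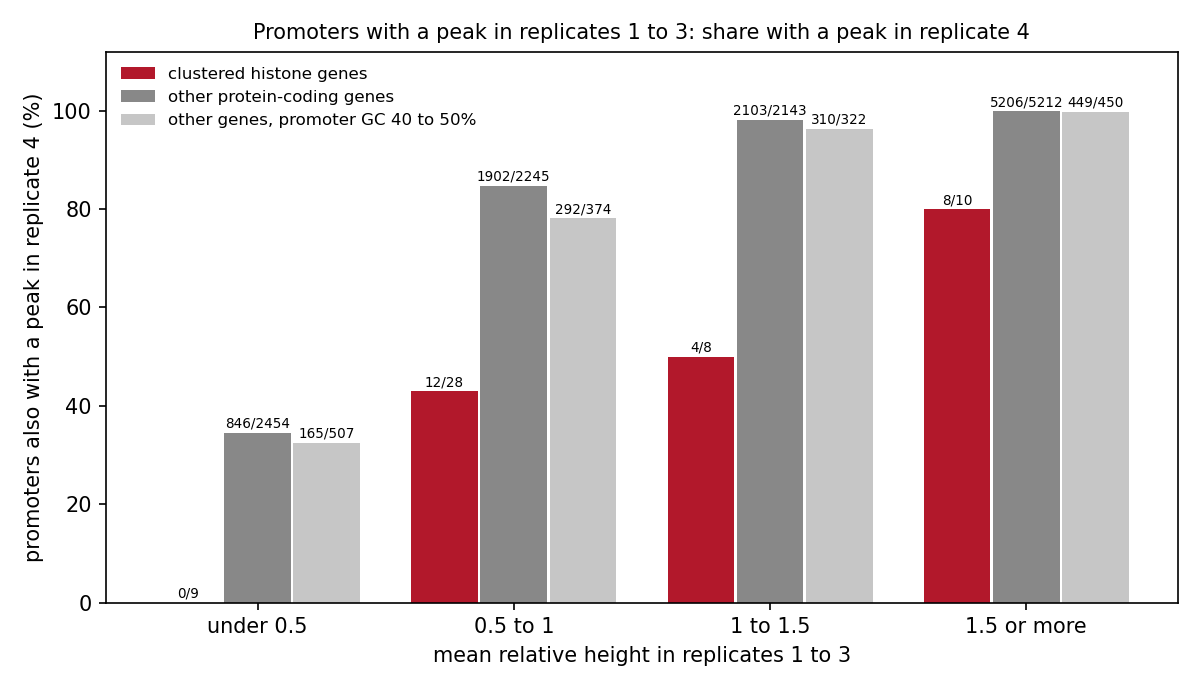
Percent of promoters with a peak in replicates 1 to 3 that also had a peak in replicate 4 (vertical axis), by mean relative height in replicates 1 to 3 (horizontal axis), for clustered histone genes (red), other protein-coding genes (dark grey) and other genes with a promoter GC content of 40 to 50% (light grey), with the counts above the bars. The red bar is the lowest in every range, and at 1 to 1.5 it stands for 4 of 8 genes, against 98.1% of other genes.

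Replicate 3 went the other way. Its relative height divided by the mean of replicates 1 and 2 had a median of 1.36 over 55 histone genes and 1.08 over 12054 other genes, and was above 1 at 49 of the 55 (89.1%) and at 63.9% of other genes. H2b genes were above 1 at 15 of 15, H4 genes at 12 of 13, H2a genes at 12 of 13 and H3 genes at 7 of 10. The B cell markers were higher in replicate 3 too, with a summed relative height of 1.99 there against 0.807 and 0.694 in replicates 1 and 2. Their sum was 2.35 in replicate 4, where the median of the histone genes was 0. The part of B cell content in the replicate 3 result was not tested.

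Footprints, short stretches protected from DNase I inside an accessible site, and intervals with a cut rate above expectation were counted in the same windows. At least 1 footprint within 1 kb was present in all 4 libraries at 18 of 67 histone genes (26.9%), against a background of 37.6%, and in replicates 1 to 3 at 52 of 67 (77.6%) against 52.7% of all genes. A cut-rate interval was present in all 4 libraries at 23 of 67 (34.3%), against a background of 46.6%, and in replicates 1 to 3 at 55 of 67 (82.1%) against 55.8%. Because genes with many starts have longer windows, the covered share was compared over genes with a consensus site and a single window of 2001 bases. There 53 histone genes had medians of 54.7%, 36.8%, 47.1% and 0% of the window under cut-rate intervals in replicates 1 to 4, and 1170 other genes had 50.5%, 43.3%, 45.4% and 17.3%. The highest site was 360 bases wide at the median of these histone genes and 290 at the other genes, with 640 for H2b, 540 for H2a, 260 for H4 and 240 for H3. 

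The words of the histone promoters differed by family. Matches were sought on both strands from 250 bases before to 50 after each start. CCAAT was found at 56 of 67 histone genes (83.6%) and at 38.9% of other genes, with 18 of 18 H2a, 18 of 18 H2b, 11 of 12 H3, 5 of 6 H1 and 4 of 13 H4 genes. TATAAA, the TATA box, was found at 55.2% of histone genes and 12.5% of other genes. ATTTGCAT was found at 15 histone genes (22.4%), of which 7 were H2a and 8 H2b, and at 1.51% of other genes. AAACACA was found at 4 of 6 H1 genes and at 13.4% of all histone genes, against 6.38% of other genes. TTTNNCGC, the word of E2F factors, was at 31.3% of histone genes and 6.23% of other genes, and TGACGTCA at 5.97% and 2.42%. Among other genes with a consensus site and 40 to 50% GC, CCAAT stood at 40.5%, TATAAA at 16.5% and ATTTGCAT at 2.37%. In that set AAACACA stood at 9.53%, nearer to the histone share, TTTNNCGC at 5.64% and TGACGTCA at 1.76%. Members that share a divergent promoter share its words, so these counts are not independent.

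The GC box of SP1, GGGCGG, was at 41.8% of histone genes and 43.0% of other genes, and at 16.2% of other genes with a consensus site and 40 to 50% GC. CCGGAAG, the ETS word, was at 1.49% of histone genes and 10.8% of other genes, and at 8.19% of those with a consensus site and 40 to 50% GC. For CGGACG, found at 2 histone genes, the shares were 2.99%, 7.69% and 2.55%, so histone genes were not lower than the last of these sets. The histone shares are over all 67 members, with or without a site, and 40 of the 67 had 40 to 50% GC, so the sets are not matched. The only overlaps between matches of different words at histone genes were 1 of CCAAT with GGTCCG, 2 of TTTNNCGC with GGGCGG and 2 of GGGCGG with GGTCCG.

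The word GGTCCG was added after H4 sequences were seen. It belongs to an element of a human H4 promoter bound by HINFP, a zinc-finger activator of H4 genes. It was found at 12 of 13 H4 genes. The other families had it at 0 of 6 H1, 0 of 18 H2a, 1 of 18 H2b and 2 of 12 H3 genes. Its share was 9.56% over other genes, and 4.25% over those with a consensus site and 40 to 50% GC. At all 12 H4 genes it stood on the gene's strand, 11 to 80 bases before the start with a median of 49.0. The H4 gene without it was Hist1h4a, the highest. Hist1h4a was the only H4 gene with CGGACG, a word that was among those sought before GGTCCG was added. A footprint covered at least 1 base of GGTCCG in at least 1 library at 10 of the 12 genes, with 7, 8, 8 and 3 in replicates 1 to 4. Over other genes with a consensus site, 25.6%, 26.9%, 25.4% and 6.5% of 1707 matches of the word were covered in replicates 1 to 4. At Hist1h4c, Hist1h4d and Hist1h4k it was covered in all 4 libraries.

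Among histone genes with a consensus site, 38.5%, 34.6%, 42.3% and 3.85% of 26 TATAAA matches lay under a footprint in replicates 1 to 4. At other genes the shares of 917 matches were 11.1%, 8.72%, 9.38% and 4.80% in replicates 1 to 4. All 4 TGACGTCA matches at histone genes were under a footprint in replicates 1, 2 and 3, against 85.6%, 85.6% and 81.6% of 396 at other genes. For CCAAT 23 of 92 matches were covered in replicate 1, and the shares were 17.4% and 10.9% in replicates 2 and 3, against 22.9%, 22.2% and 20.7% of 6790 at other genes in replicates 1 to 3. For AAACACA 0 of 7 matches were covered in any library, against 7.68%, 9.14%, 8.23% and 1.83% of 547 matches at other genes in replicates 1 to 4, and 7 matches are too few to tell these apart. In the same windows 14.5% of histone promoter bases and 16.7% of other promoter bases lay under footprints in replicate 1, and 1.64% and 4.21% in replicate 4.

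The mRNA end of the members was checked in the reference sequence as a property that the symbol rule did not use. A stem-loop, read as 6-base arms beginning with GG that pair perfectly around 4 bases beginning with TTT within 120 bases after the stop codon, was present at 63 of 67 histone genes and at 6 of 21884 other coding genes. The form at 41 members, none of them H4, was this one, with the loop and its arms in capitals.
H1, H2a, H2b and H3: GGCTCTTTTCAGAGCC
H4: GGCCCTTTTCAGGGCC
The H4 form was found at 8 of the 12 H4 genes that have a stem-loop, the other 4 having 2 each of a further pair of forms. The arms thus differed between H4 and the other families at these genes. Hist1h2an, Hist1h3g, Hist1h4a and Hist2h2be had no such match, and all 4 had a consensus site. Their median of mean relative heights was 0.936, against 0.591 for the 63 with a stem-loop.

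Genes that regulate histone genes and replication genes had higher promoter peaks than the histone genes. The lists were the regulators of histone genes (21), replication and S phase genes (23) and replacement histone genes (11). All 21 regulators and all 23 replication genes had a peak in every library, against 45.9% of all genes. A consensus site was present at 9 of 11 replacement histone genes, against 55.1% of all genes. The median of mean relative heights was 0.651 over the 67 clustered histone genes, with or without a site. It was 2.44 over the regulators, 1.92 over the replication genes and 1.90 over the replacement histones. Among genes with a consensus site, with no correction for the number of starts, it was 0.769 over the clustered histone genes and 1.33 over all other genes. The highest regulators were Nfya, a subunit of NF-Y, with a mean of 4.67 ± 0.336, Ccne1, which encodes cyclin E, with 4.48 ± 0.191, and Casp8ap2, which encodes the histone locus body protein FLASH, with 4.12 ± 0.535 (SD, n = 4). Orc1, of the origin recognition complex, led the replication genes at 3.10 ± 0.310, followed by Chaf1b at 3.00 ± 0.369 and Mcm5 at 2.98 ± 0.282.

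Of the replacement histones, H2afv had a mean of 3.14 ± 0.340, H2afj 2.58 ± 0.252 and H3f3b, an H3.3 gene, 2.55 ± 0.349 (SD, n = 4). H2afy2, a macroH2A gene, had no peak in any library, and H2afy, H1f0 and H1fx had means of 0.341, 0.824 and 0.0375. The means of H2afv and H2afj exceed those of every clustered H2a and H2b gene, the highest of which was Hist2h2aa2 at 1.17. That of H3f3b exceeds every clustered H3 gene but Hist1h3a, which carries the site of Hist1h4a. Hist1h4a at 3.03 and Hist1h4c at 2.93 were above H2afj and H3f3b. The H4 family had a median of mean relative heights of 1.49, nearer to the 1.90 of the replacement histones than any other family, of which the highest was H3 at 0.638. Relative heights of different genes are set side by side here as heights of peaks, with no correction for the mappable length of each promoter.

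**Figure D4:**
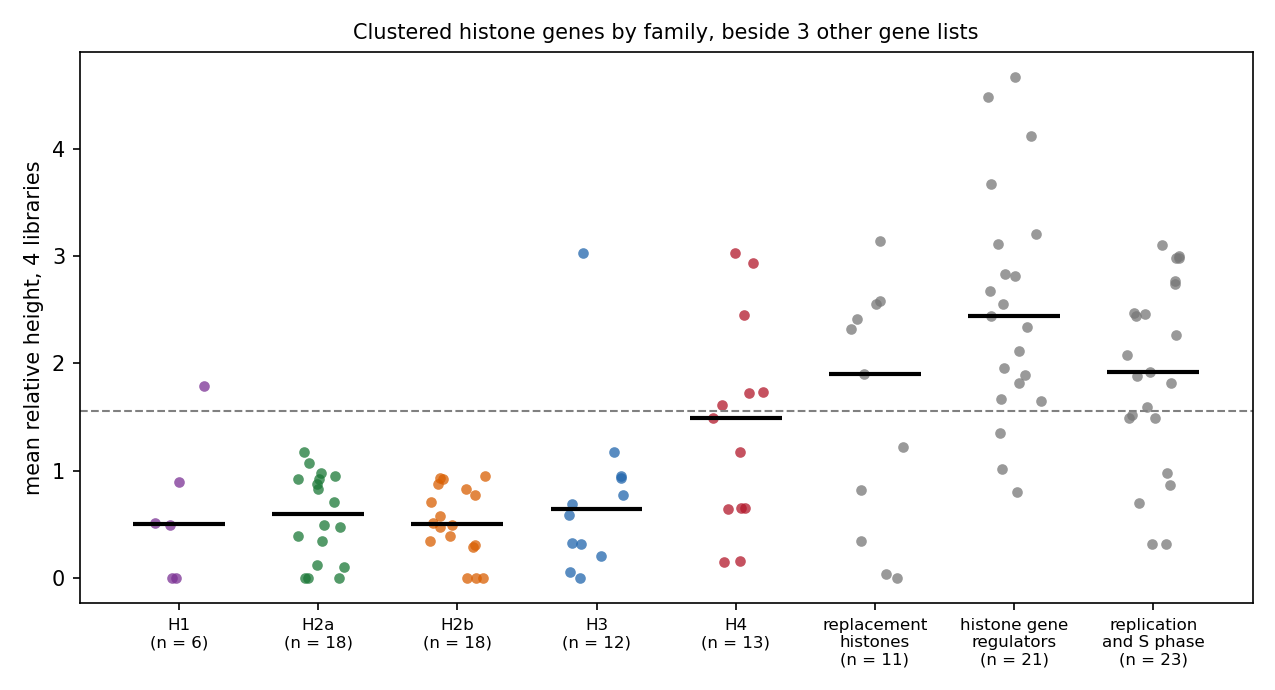
Mean relative height over 4 libraries (vertical axis) of each clustered histone gene by family, and of each replacement histone gene, histone gene regulator and replication or S phase gene (points), with the median of each list (bar) and the median called promoter averaged over libraries (dashed line). The medians of H1, H2a, H2b and H3 lie between 0.503 and 0.638, that of H4 at 1.49, and those of the 3 other lists between 1.90 and 2.44.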

How the data were processed

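DNase-seq of 4 libraries of naive resting CD8-positive T cells was analysed from the deposited interval files on mm10. The authors deposited for each library 2 peak lists, of which the longer was used with a height per peak as its signal, whose scaling is not given in the labels. They also deposited footprints, each with a constant p-value type entry of 0.01, and cut-rate intervals whose deposited p-value column, a false discovery rate, is below 0.05. Neither the aligner and callers nor their thresholds and treatment of multiply mapped reads could be taken from the sources used here, and read depth is unknown.

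Starts came from GENCODE release M21, with the annotation and sequence of GRCm38 taken from the reference supplied. Sites of the 4 libraries were merged by overlap, and a gene took its highest peak within 1 kb of any start. Heights were divided by the median height of the sites called in all 4 libraries. The share of 32-base words from 250 bases before to 50 after a start that occur once in the genome was used as a measure of copies. Single members were set against the median called promoter by an exact two-sided sign-flip permutation test over 4 libraries, with Benjamini-Hochberg adjustment over 20 members. The steps were tested on simulated data. Statistics used scipy 1.17.1 and numpy 2.4.6, tables pandas 2.3.3 and figures matplotlib 3.10.9, under Python 3.11.15.

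The members, lists and tests were chosen with earlier results of these data known. Named genes were all members of Hist2, Hist3 and Hist4, the 3 highest of each Hist1 family and the first 2 of each with no peak, a fixed set of H1, testis and other genes, and the 3 highest of each comparison list. Other members, the comparison of replicate 4, the replicate 3 ratio and GGTCCG were chosen after their values or sequences were seen. Alternatives were the peak list, window, starts, number of libraries, scaling, copies and each library left out. Some marker and sequence items are not reported here.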

Additional observations from a re-analysis of the deposited data

Results flagged for a closer look

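Of 56 sets of 4 library values examined, 16 had 1 library far from the other 3, and chance flags about 1 in 20 such sets. The gap of the lowest library to its neighbour is given as a share of the whole range, and in each case replicate 4 was the lowest. For relative heights it was 0.847 at Hist1h1b, 0.833 at Hist1h1e and 0.850 for the H1 median. For the number of genes with a promoter peak it was 0.970 over all clustered histone genes, 1.00 over those with a consensus site, 0.966 in Hist1, 1.00 in Hist2 and 1.00 in Hist3. By family it was 1.00 in H1, 0.875 in H2a, 1.00 in H2b, 0.875 in H3 and 1.00 in H4. It was 0.855 over other protein-coding genes, 0.997 over those of them with a consensus site and 0.857 over all protein-coding genes. These sets overlap in their genes.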

How the results depend on the processing

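With a peak needed in 4 of 4 libraries, 24 of 67 members had a site in place of 55, with 16 in Hist1, 1 in Hist3, 2 in H1, 7 in H2a, 5 in H2b, 3 in H3 and 7 in H4. With each library left out and the other 3 needed, the count ran from 24 to 55 in all, 16 to 43 in Hist1, 1 to 2 in Hist3, 2 to 4 in H1, 7 to 13 in H2a, 5 to 15 in H2b, 3 to 10 in H3 and 7 to 13 in H4, the upper end each time without replicate 4. Counting a site for its nearest start left 46 of 67 members and 8 of 18 H2a genes, against 50.9% of all genes. An equal number of peaks left 41 of 67 members, 1 of 2 genes in Hist3 and 9 of 18 in H2b, against 44.3%. Scaling to all peaks moved the median relative height to 2.32, against 0.582. Footprints in every library ran from 18 to 52 members and cut-rate intervals from 23 to 55, the upper ends without replicate 4. A cut-rate interval with a value below 0.001 in every library was found at 13 members, against 41.0% of all genes. With the shorter lists, 11 of 53 members called in replicates 1 to 3 were called in replicate 4 (20.8%), against 78.0% of other genes and 975 of 1501 of those at 40 to 50% GC, where the longer lists gave 24 of 55.

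Of the named members' differences from the median called promoter, 203 kept their direction and 6 reversed. Hist4h4 came to -0.0680 with the shorter lists and -0.00986 without replicate 2, with 0.13 without replicate 4 the highest of the values that leave out a library. Hist1h4i came to -0.337 in replicates 1 and 2 and -0.102 without replicate 3, with 0.342 without replicate 2 the highest of those values. Hist1h3a came to -1.06 at 0.5 kb and Hist1h1a to 1.48 at 2.5 kb. Apart from the windows, where a neighbouring site enters or leaves, the cause was not tested. No paired analysis was possible because the libraries form 1 group. Read depth is unknown, so an uncalled peak gives no upper limit.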
